A study of Mus musculus with 75 samples.

Results

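The choroid plexus of old mice that shared the circulation of a young partner was compared with that of old mice joined to an old partner. RNA sequencing libraries were chosen by the parabiosis type and age in the labels: 2 old heterochronic mice (numbers 29 and 34) and 3 old isochronic mice (numbers 19, 21 and 23), 5 of the 11 parabiont libraries and of the 75 samples in the series. All were C57BL/6 mice aged 22 months, perfused with PBS, whose choroid plexus was excised and frozen on dry ice and whose RNA was purified with the RNA MicroPrep kit. The partner of a heterochronic mouse was of the other age and that of an isochronic mouse of its own age, so both groups had undergone the union itself and neither was unjoined. The labels give neither how long the pairs were joined nor which mice formed a pair, so whether the young partner of mouse 29 or 34 is among the young libraries is not known. Beside these groups stand 3 young heterochronic and 3 young isochronic parabionts aged 3 months, and 3 aged and 3 young choroid plexus libraries of unjoined, untreated C57BL/6 mice, labelled WT and aged 22 and 3 months. Each library came from 1 mouse, per the labels, and with 2 on one side the value of each old heterochronic mouse is given throughout.

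The choroid plexus is a fold of epithelium over a bed of leaky capillaries, stroma and macrophages, and it makes the cerebrospinal fluid and the barrier between blood and that fluid. It is reached by signals from both sides, and in parabiosis, where the circulations of joined animals merge, the blood side is shared while each animal keeps its own brain. Type I interferons act through the receptor chains encoded by Ifnar1 and Ifnar2 on the kinases Jak1 and Tyk2, and the signal switches on a large set of antiviral genes through transcription factors such as Irf9. The question set by the design is which features of the aged choroid plexus differ when young blood reaches it.

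The 2 old heterochronic libraries were the shallowest and the third shallowest of the 11, with 685687 reads in mouse 29 and 532943 in mouse 34 over 1 transcript per gene, against 797039 to 883419 in old isochronic mice. Library 34 also stood apart from the rest: on the first principal component, which held 15.35% of the variance, it lay at -40.99, against -5.58 for library 29 and -0.66 to 0.38 for the old isochronic libraries, and its mean correlation with the other 10 libraries (0.9496) was the lowest. Each result below is therefore given for mouse 29 and mouse 34 separately. High values are compressed in the parabiont table: the most abundant transcript, Ttr, was worth 848 to 993 reads in each library, whereas it was worth 170131 to 222839 reads in the choroid plexus of unjoined mice. The tissue label fitted its markers, with all 10 epithelial markers tested and Ttr as the highest gene in all 11 libraries. The 12 markers of T and NK cells in the table summed to 14.6 in mouse 29 and 6.65 in mouse 34, against 9.31 to 12.8 in old isochronic mice, and 0 of them passed the filter on low values. In such bulk libraries fewer cells of a type and less RNA per cell cannot be told apart.

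No gene passed the test between old heterochronic and old isochronic mice. With limma and Benjamini-Hochberg adjustment over 13281 genes, 0 genes (0%) had an adjusted p under 0.05. An unadjusted p under 0.05 was reached by 1184 genes (8.91%), of which 539 (4.06% of genes tested) were higher and 645 (4.86%) lower in old heterochronic mice. Both old heterochronic mice lay above all 3 old isochronic mice for 1867 genes (14.1%) and below all 3 for 1806 (13.6%). Of the 13281 genes, 6319 had a log2 difference above 0 and 6962 one below, and the median over all genes was -0.01. The mice, taken one at a time against the 3 old isochronic mice, gave unlike results. In mouse 34, the shallowest library, 1 read is worth 1.48, so a low gene can reach a large negative difference through a few reads. The part of depth in its lower genes was not tested. Mouse 29 alone had 1 called gene (0.00753%), Bpifa6, at 102 in mouse 29, against 3.85, 6.82 and 0.909 in old isochronic mice. Mouse 34 alone had 74, of which 6 were higher (0.0452%) and 68 lower (0.512%). A lone library has no replicate and was assumed to vary like the other groups, and 14 of the 68 lower genes were Pcdha protocadherin genes whose values took only 2 distinct forms, since those genes share exons and reads.

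Type I interferon response genes, the antiviral set described above, did not lie on the same side in the 2 old heterochronic mice. Of the 28 members tested (of 34 listed), 0 passed the test, 9 lay above 0 and 19 below, and the median log2 difference was -0.21, against -0.01 over all genes. Mouse 29 lay above all 3 old isochronic libraries for 15 of the 28 members, against 27.2% of all genes, and below them for 3, against 28.1%. Mouse 34 lay below all 3 for 20 of the 28, against 32.6% of all genes, and above them for 1, against 30.8%. For 9 members mouse 29 was above and mouse 34 below every old isochronic library, which was the case for 6.17% of all genes, and the reverse held for 0 members and 5.54% of all genes. The median difference was 0.33 for mouse 29 alone and -0.73 for mouse 34 alone, so leaving out either mouse decided the sign.

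**Figure D1:**
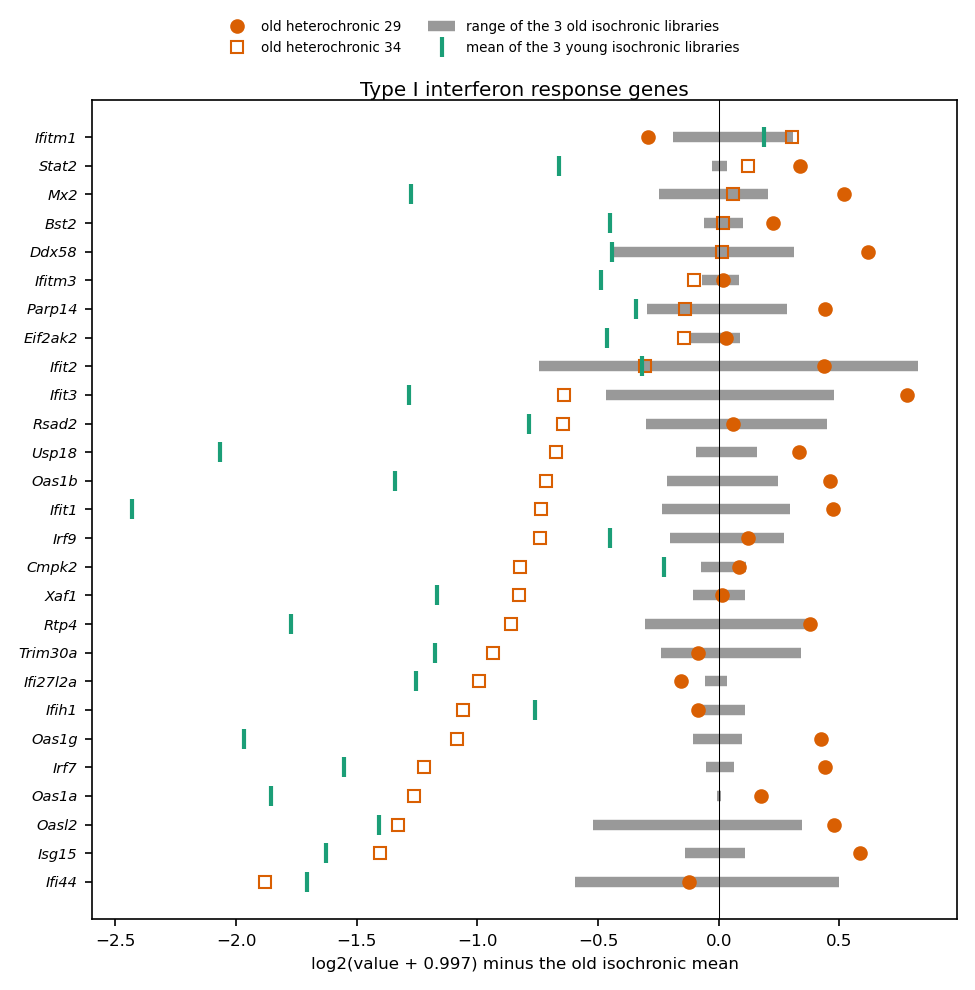
Each row is 1 of 27 of the 28 type I interferon response genes tested, and the x axis is log2 of the value plus a pseudocount of 0.997, minus the old isochronic mean. Filled circles are old heterochronic mouse 29, open squares old heterochronic mouse 34, grey bars the range of the 3 old isochronic libraries and green ticks the mean of the 3 young isochronic libraries; among the 27 rows the circles lie above the grey bar for 14 genes and the squares below it for 20.

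Isg15, a ubiquitin-like protein that is coupled to other proteins in the antiviral state, had a value of 70.4 in mouse 29 and 17.00 in mouse 34, against 47.7, 42.2 and 50.4 in old isochronic mice, and 17.5, 13.7 and 12.5 in young isochronic mice. Mouse 29 was above and mouse 34 below every old isochronic library, and mouse 34 was within the young isochronic range. The log2 difference between the groups was -0.41 (SE 0.37, 95% interval -1.19 to 0.37, limma adjusted p = 0.786). Irf7, the transcription factor that amplifies interferon production, had 91.1 in mouse 29 and 28.1 in mouse 34, against 66.3, 69.9 and 64.5 in old isochronic mice, and 20.6, 17.2 and 30.5 in young isochronic mice. It showed the same order, with a log2 difference of 0.44 for mouse 29 alone and -1.22 for mouse 34 alone (limma adjusted p = 0.027 for mouse 34). Ifit1, which binds viral RNA that lacks the host cap, had 98.8 in mouse 29 and 42.1 in mouse 34, against 87.3, 60.2 and 67.9 in old isochronic mice, and 7.37, 11.8 and 21.04 in young isochronic mice. Here mouse 34 lay below the old isochronic range but was still higher than every young isochronic library. For Ifit1 the 95% interval of the difference ran from -0.83 to 0.57, whereas old isochronic mice exceeded young isochronic mice by 2.43 on the log2 scale.

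The sequences of the Isg15 and Ifit1 promoters show the element through which interferon signals act on many antiviral genes, the interferon-stimulated response element. They are 300 bases each, 250 before and 50 after the gene's start, from RefSeq on build GRCm38.p6, and were not read from these libraries. Capitals mark each match to GAAANNGAAA on either strand; the 3 matches in Isg15 overlap one another.
Isg15, chr4:156200769-156201068, minus strand: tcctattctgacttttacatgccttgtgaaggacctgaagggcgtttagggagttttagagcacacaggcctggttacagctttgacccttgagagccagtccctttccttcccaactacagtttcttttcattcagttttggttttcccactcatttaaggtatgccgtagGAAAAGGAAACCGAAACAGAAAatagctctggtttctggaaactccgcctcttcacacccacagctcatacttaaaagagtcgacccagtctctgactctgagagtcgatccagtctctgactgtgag
Ifit1, chr19:34640639-34640938, plus strand: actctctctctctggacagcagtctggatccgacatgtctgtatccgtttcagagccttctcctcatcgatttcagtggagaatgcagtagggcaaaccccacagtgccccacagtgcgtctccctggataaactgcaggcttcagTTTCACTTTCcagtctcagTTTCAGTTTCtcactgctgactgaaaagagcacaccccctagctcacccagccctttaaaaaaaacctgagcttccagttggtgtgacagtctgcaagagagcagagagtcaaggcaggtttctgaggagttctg
The motif was found in 13 of the 21 members tested whose promoter is in the RefSeq table (61.9%), in 307 of the 10502 genes tested with a promoter there (2.92%) and in 3.44% of all 32851 promoters of this length. Irf7 and Irf9 held no match in this window. A match describes the letters in the window and not a bound site.

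The genes with the smallest p in the list were Ifi27l2a and Ifih1. Ifi27l2a, a small interferon-induced membrane protein, had 133 in mouse 29 and 73.9 in mouse 34, against 151, 142 and 152 in old isochronic mice, and 66.00, 54.8 and 64.4 in young isochronic mice. Mice 29 and 34 were both below all 3 old isochronic mice, mouse 34 by far more. The log2 difference was -0.58 (SE 0.17, limma adjusted p = 0.451), and for mouse 34 alone it was -0.99 with an adjusted p of 0.011. Ifih1, the cytosolic sensor of long double-stranded RNA known as MDA5, had 41.6 in mouse 29 and 20.7 in mouse 34, against 43.3, 47.7 and 41.8 in old isochronic mice. Mouse 29 was just below the lowest old isochronic value, and mouse 34 was below every young isochronic library as well (22.7, 27.4 and 27.2 in young isochronic mice).

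Between old and young isochronic mice 20 genes were called higher (0.151%) and 5 lower (0.0376%), and 8 of the 28 interferon members were among the 20. Usp18, which removes Isg15 from proteins and damps interferon signalling, had the smallest p of these, and it was chosen for display after its values were seen. It had 66.4 in mouse 29 and 32.5 in mouse 34, against 58.7, 50.3 and 49.1 in old isochronic mice, and 12.4, 9.39 and 14.03 in young isochronic mice. Mouse 34 lay below the old isochronic range and above the young isochronic one. Usp18, Isg15, Irf7 and Ifit1 thus had their highest old value in mouse 29 and their lowest in mouse 34. Ifitm3 and Bst2, both with high values, differed less between the old libraries than Usp18 did. Ifitm3, which blocks virus entry at endosomes, had 175 in mouse 29 and 161 in mouse 34, against 165, 171 and 183 in old isochronic mice, and 117, 137 and 116 in young isochronic mice. Bst2, the tetherin that holds virions on the cell surface, had 258 in mouse 29 and 223 in mouse 34, against 237, 211 and 214 in old isochronic mice, and 162, 173 and 149 in young isochronic mice. Old heterochronic and old isochronic libraries overlapped for Ifitm3 and Bst2, and both old heterochronic mice were above every young isochronic mouse.

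**Figure D2:**
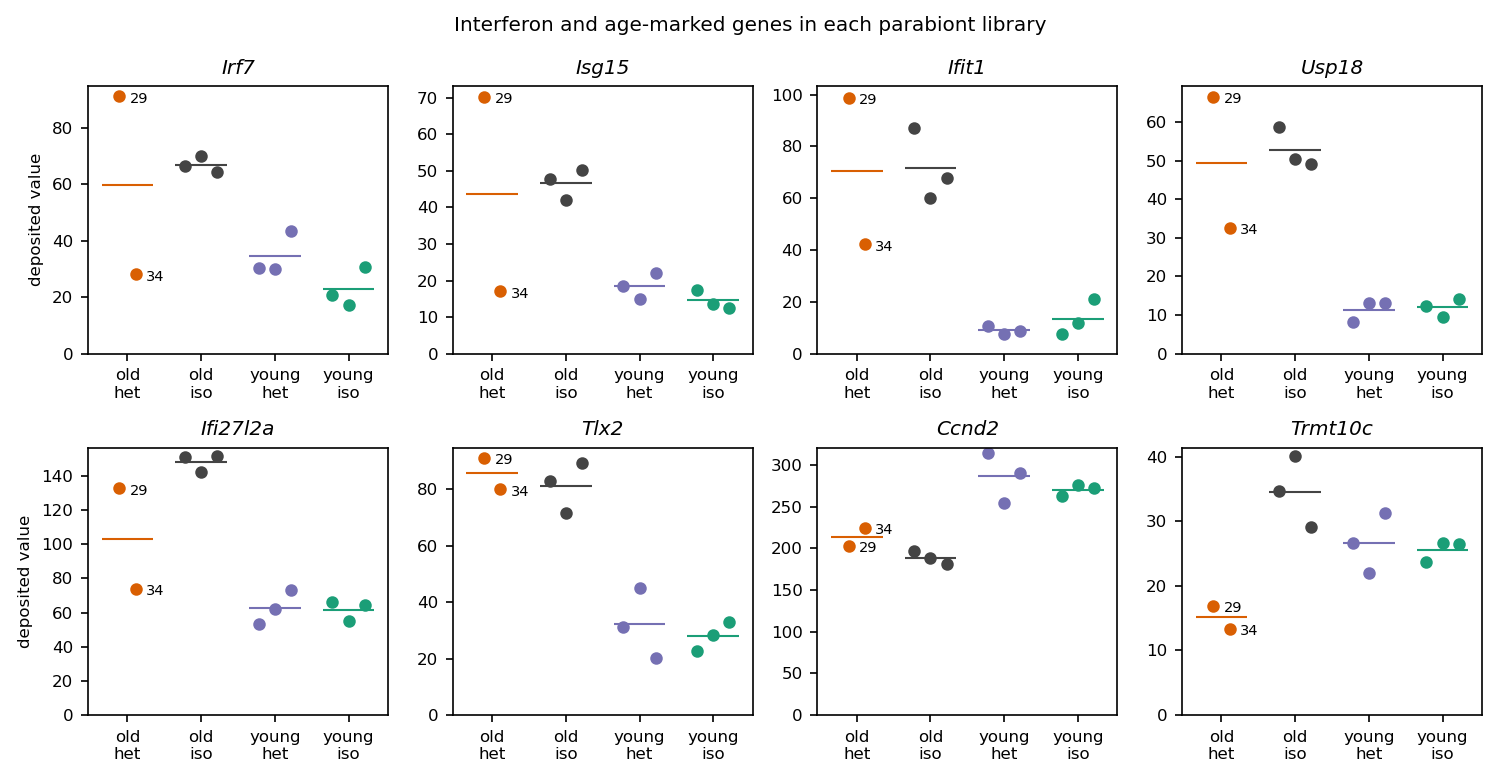
Deposited values (y axis, from 0) of 8 genes in each parabiont library, in the order old heterochronic (mice 29 and 34 labelled), old isochronic, young heterochronic and young isochronic; points are libraries and lines group means. For Irf7, Isg15, Ifit1 and Usp18 mouse 29 is the highest and mouse 34 the lowest of the 5 old libraries, while Tlx2 in both is near the old isochronic values and Ccnd2 in both lies between the old and the young isochronic values.

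As a score, the mean log2 value over the 28 members was 5.38 in mouse 29 and 4.49 in mouse 34, against 5.17, 5.10 and 5.14 in old isochronic mice. It was 4.06, 3.81 and 4.05 in young heterochronic mice and 3.97, 4.07 and 4.18 in young isochronic mice. The old heterochronic mice spanned the old isochronic mean (4.94 ± 0.63, SD, n = 2, against 5.13 ± 0.03, SD, n = 3), and both were above every young library. The receptor and kinase genes upstream had medians near 0 in both mice. Of the 7 tested from the list of interferon ligands and receptors, 0 had an unadjusted p under 0.05, against 8.91% of all genes. Mouse 29 was above and mouse 34 below every old isochronic library for 0 of the 7, against 6.17% of all genes. The reverse held for 1, against 5.54%. With 7 genes these counts are too small to set the list apart from all genes. The median difference was -0.06 for mouse 29 alone and 0.03 for mouse 34 alone. Ifnar1 had 33.3 and 38.9 in old heterochronic mice, against 39.3, 37.98 and 36.9 in old isochronic mice. Jak1 had 83.3 and 68.02 in old heterochronic mice, against 87.5, 98.9 and 75.4 in old isochronic mice, and its log2 difference was -0.20 (limma adjusted p = 0.664). The ligand genes Ifnb1 and Ifng were not analysed here.

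Several cell type markers stood apart in library 34 beside the interferon values. Summed over the list, 19 macrophage and microglia markers reached 397 in mouse 29 and 532 in mouse 34, against 393 to 430 in old isochronic mice. The 12 stroma and pericyte markers summed to 718 in mouse 29 and 932 in mouse 34, against 702 to 717 in old isochronic mice. The 13 endothelial markers summed to 646 in mouse 29 and 792 in mouse 34, against 679.7 to 704 in old isochronic mice. The 8 erythroid markers summed to 190.5 in mouse 29 and 436 in mouse 34, against 219 to 274 in old isochronic mice. No gene of these 4 lists was at 0 in both old heterochronic mice. The summed markers of these 4 cell types were higher in mouse 34 than in every old isochronic mouse while most interferon genes were lower. They were not alone in this. The 10 epithelial markers summed to 3958 in mouse 29 and 4587 in mouse 34, against 3350 to 3678 in old isochronic mice. Sums for ependyma, neurons, astrocytes, oligodendrocytes, neutrophils and muscle also exceeded the old isochronic range in mouse 34. Those for T and NK cells, B and plasma cells, mast cells and fat cells did not. The part of these marker levels, or of depth, in the interferon values was not tested.

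Genes marked by age in an independent set of unjoined mice had a median near the old isochronic mean, and the 2 mice differed in them. Most of these genes were not called by age in the parabionts. In unjoined mice 27 genes were higher (0.277% of 9751 tested) and 4 lower (0.041%) in aged than in young choroid plexus at a limma adjusted p under 0.05. Of the 27, 26 were tested in parabionts. Between old and young isochronic mice 9 of the 26 were called, and their median difference was 0.43, against 1.56 in unjoined mice. Members that hardly differed by age in parabionts cannot show an age mark kept or lost. Between old heterochronic and old isochronic mice the 26 had a median difference of 0.04, and 15 lay above 0. An unadjusted p under 0.05 was reached by 5 on the higher side and 1 on the lower side, against 4.06% and 4.86% of all genes. Mouse 29 lay above all 3 old isochronic mice for 16 of the 26 and below them for 3, against 27.2% and 28.1% of all genes. Mouse 34 lay above them for 7 and below them for 9, against 30.8% and 32.6% of all genes. Mouse 29 exceeded all 3 young isochronic mice for 20 of the 26 genes and mouse 34 for 19, as 18 or 19 did in each old isochronic mouse. The 7 of these genes on the interferon list had a median difference of 0.38 for mouse 29 and -0.86 for mouse 34, and the other 19 had 0.09 for mouse 29 and -0.0029 for mouse 34. The 19 include both Pisd-ps1 and Pisd-ps3, which share their reads, and were not checked for interferon genes outside that list. The old isochronic libraries enter both the comparison with old heterochronic mice and that of old with young isochronic mice.

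Tlx2, a homeobox transcription factor of neural crest derivatives, had 91.1 in mouse 29 and 79.9 in mouse 34, against 82.7, 71.6 and 89.05 in old isochronic mice, and 22.7, 28.2 and 33.01 in young isochronic mice. Both old heterochronic mice were inside or just above the old isochronic range and above every young isochronic mouse. Sult1c1, a cytosolic sulfotransferase and the called gene with the smallest p in unjoined mice, had 61.9 in mouse 29 and 68.02 in mouse 34, against 97.1, 65.6 and 64.5 in old isochronic mice, and 57.8, 41.5 and 31.4 in young isochronic mice. Its old groups overlapped, and its log2 difference was -0.19 (SE 0.30, limma adjusted p = 0.901). The pseudogenes Pisd-ps1 and Pisd-ps3, which share their reads and count as 1 measurement, had 143 in mouse 29 and 108 in mouse 34, against 106, 121 and 113 in old isochronic mice, and 66.5, 50.1 and 63.95 in young isochronic mice. Lgals3bp, a secreted galectin-binding glycoprotein, had 263 in mouse 29 and 251 in mouse 34, against 259, 237 and 261 in old isochronic mice, and 215, 181 and 177 in young isochronic mice. Spink8, a serine protease inhibitor, was at 1.13 in mouse 29 and 1.48 in mouse 34 and did not pass the filter on low values.

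Cox8b, an isoform of a cytochrome c oxidase subunit, was beyond the old isochronic mice rather than nearer to the young ones. It had 219 in mouse 29 and 234 in mouse 34, against 192, 170.4 and 195 in old isochronic mice, and 170.2, 143 and 142 in young isochronic mice. The log2 difference was 0.28 (limma adjusted p = 0.479), and 0.15 after quantile normalization. Among the 4 genes lower with age in unjoined mice, Ccnd2, a cyclin of early cell division, had 203 in mouse 29 and 225 in mouse 34, against 196, 188 and 181 in old isochronic mice, and 263, 276 and 272 in young isochronic mice. Both old heterochronic mice were above every old isochronic mouse and below every young isochronic mouse. The log2 difference was 0.18 (SE 0.10, 95% interval -0.02 to 0.38, limma adjusted p = 0.602), against -0.52 between old and young isochronic mice, and it was 0.05 after quantile normalization. Ndn, an imprinted growth suppressor that was among these 4 and was named after its values were seen, had 22.5 in mouse 29 and 23.7 in mouse 34, against 34.6, 20.5 and 19.99 in old isochronic mice, and 45.4, 46.97 and 53.6 in young isochronic mice. Both old heterochronic mice were within the old isochronic range and below every young isochronic mouse.

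Most genes of the choroid plexus epithelium lay above the old isochronic mean, none past the adjusted threshold, and the difference moved with the level of the gene. Of 17 genes for secreted and carrier proteins tested, 16 lay above 0, with a median of 0.23, and 10 had an unadjusted p under 0.05 on the higher side, against 4.06% of all genes. Of 18 ion and water transport genes, 16 lay above 0, with a median of 0.21, and 8 reached that p. Quantile normalization, which gives every library the same distribution of values, brought these medians to 0.00 and 0.03. It brings the median of abundant genes as a class near 0 by construction. It therefore cannot tell a change of these genes from a shift of scale, and the source of the difference was not tested. Over all genes the median difference was -0.15 for genes with a mean level of 3 to 4 on the log2 scale, 0.02 for those of 6 to 7, 0.12 for those of 7 to 8 and 0.22 for the 141 genes above 8. In that highest class 80 genes (56.7%) had an unadjusted p under 0.05 on the higher side and 0 on the lower. Mouse 34, the shallowest, showed a median of 0.31 there, mouse 29 one of 0.15, and the old isochronic mice -0.10 to 0.08 against each other.

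**Figure D3:**
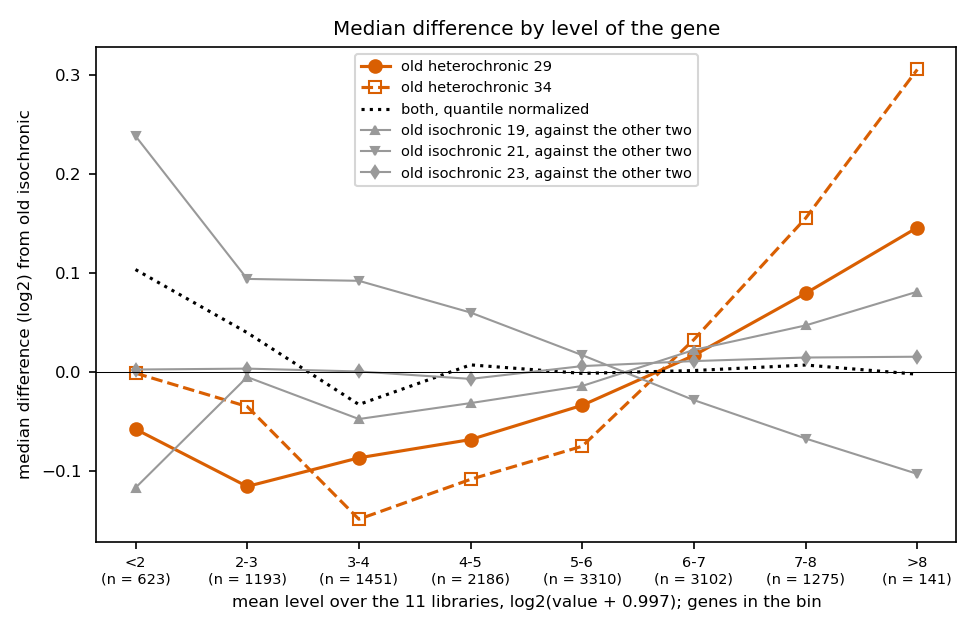
The x axis groups the 13281 genes by their mean log2 level over the 11 libraries, with the number of genes in each class, and the y axis is the median log2 difference from old isochronic mice. Lines are old heterochronic mice 29 and 34, both after quantile normalization (dotted), and each old isochronic mouse against the other 2 (grey). The lines of mice 29 and 34 climb to 0.15 and 0.31 in the highest class. The dotted line stays near 0 there, largely by construction of that normalization.

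Ttr, the thyroxine and retinol carrier of the cerebrospinal fluid, had 959.8 in mouse 29 and 1254 in mouse 34, against 914, 812 and 859.6 in old isochronic mice. In reads Ttr was lower in both, worth 853 in mouse 29 and 848 in mouse 34, against 946 to 952 in old isochronic mice. The value of 1 read was 1.13 in mouse 29 and 1.48 in mouse 34, against 0.85 to 0.96 in old isochronic mice. Ranked by the deposited value of Ttr, the 5 old libraries stood in the reverse order of their depth. The log2 difference was 0.35 (limma adjusted p = 0.451); as the highest gene of every library, Ttr gets 1 common value by construction under quantile normalization, which says nothing of it. Kl, the anti-ageing protein klotho that the epithelium makes and sheds, had 518 in mouse 29 and 595 in mouse 34, against 458, 439 and 426 in old isochronic mice. Both old heterochronic mice were above all 3 old isochronic mice, with a log2 difference of 0.33 (SE 0.10, limma adjusted p = 0.451) and of 0.05 after quantile normalization. Enpp2, the enzyme autotaxin that makes lysophosphatidic acid, had 731 in mouse 29 and 938 in mouse 34, against 652, 574 and 597 in old isochronic mice. Its log2 difference of 0.45 as deposited was gone after quantile normalization, which holds the highest genes near common values by construction. Aqp1, the apical water channel, had 280.2 in mouse 29 and 333 in mouse 34, against 247, 233 and 251 in old isochronic mice, a log2 difference of 0.33 as deposited and of 0.12 after quantile normalization. Folr1, the folate receptor that moves folate into the fluid, had 414 in mouse 29 and 444 in mouse 34, against 355, 321 and 351 in old isochronic mice. All 5 of these genes were higher in mouse 34 than in mouse 29, and the part of depth and of the compressed scale was not tested.

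Sets other than the epithelial ones also lay mostly above the old isochronic mean, and quantile normalization changed their medians to unlike extents. Of 44 nuclear-coded respiratory chain genes, 37 lay above 0 and 20 had an unadjusted p under 0.05 on the higher side, against 4.06% of all genes. Their median of 0.19 became 0.01 after quantile normalization, which brings abundant genes as a class near 0 by construction. Uqcr11, a subunit of complex III, had 241 and 290.1 in old heterochronic mice, against 226, 197 and 201 in old isochronic mice. Of 37 cytosolic ribosomal protein genes, 33 lay above 0 and 6 reached that p on the higher side and 1 on the lower, with a median of 0.14 as deposited and 0.13 after quantile normalization. Rpl38 was the exception on the lower side, with 57.4 and 42.98 in old heterochronic mice, against 58.2, 71.4 and 63.5 in old isochronic mice. Of 27 collagen and matrix genes, 19 lay above 0, with a median of 0.19 as deposited and 0.11 after quantile normalization; mouse 29 was above all old isochronic mice for 10 of them and below for 5, against 27.2% and 28.1% of all genes, and mouse 34 was above for 18 and below for 0, against 30.8% and 32.6%. Timp2, an inhibitor of matrix metalloproteinases, had 378 and 420.0 in old heterochronic mice, against 335, 297 and 317 in old isochronic mice. Ftl1 and Fth1, the light and heavy chains of the iron store ferritin, had 167 and 193 in old heterochronic mice, against 151, 135 and 132 in old isochronic mice, and 367 and 416 in old heterochronic mice, against 338, 305 and 313 in old isochronic mice.

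**Figure D4:**
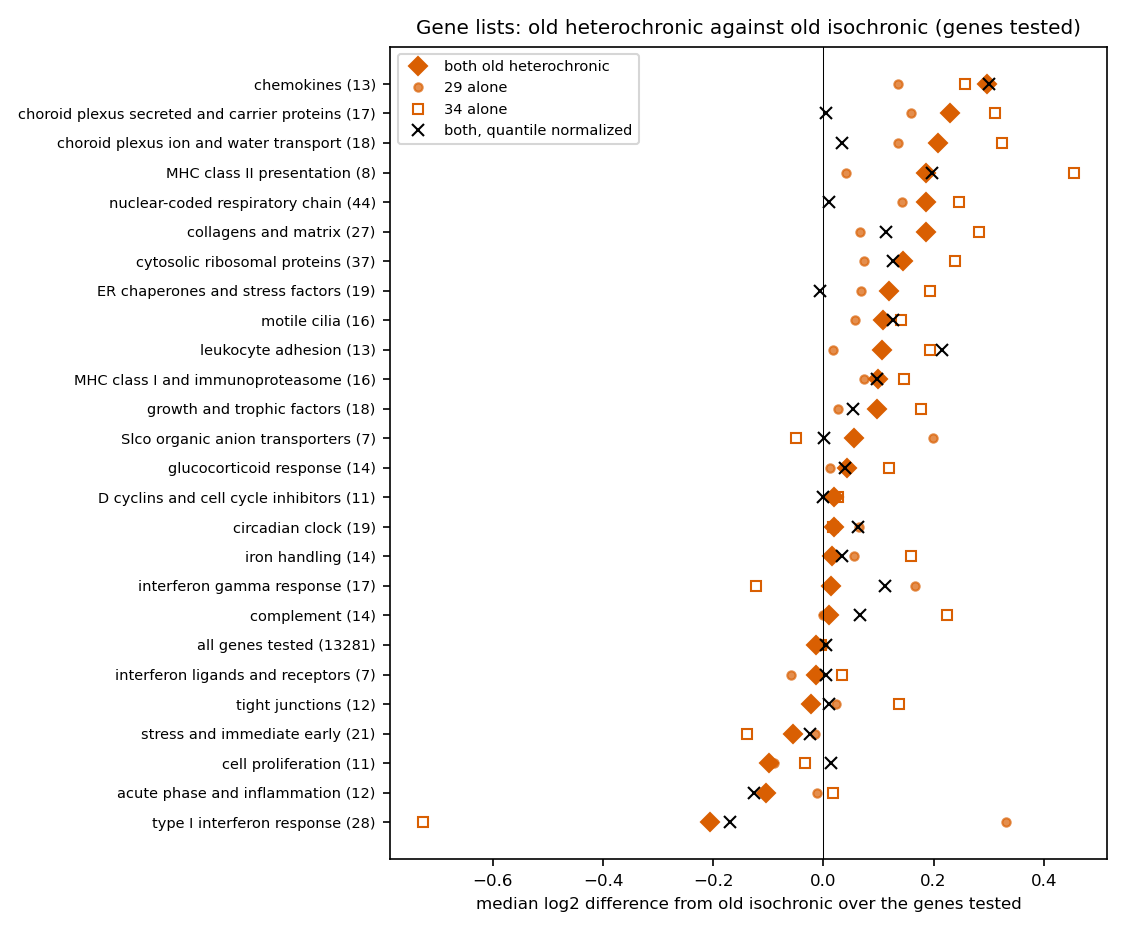
Median log2 difference (x axis) between old heterochronic and old isochronic mice over the tested members of each gene list (number tested in parentheses), for both mice (diamonds), mouse 29 alone (filled circles), mouse 34 alone (open squares) and both after quantile normalization (crosses). Of the lists plotted, which leave out the cell type markers, the type I interferon list has the widest gap between the mice, 0.33 for mouse 29 and -0.73 for mouse 34. The epithelial and respiratory chain lists move from about 0.2 to near 0 with quantile normalization. These lists hold abundant genes, whose median that normalization brings near 0 largely by construction.

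Immune lists other than the type I interferon one again had 0 members past the adjusted threshold. The 17 interferon gamma response genes tested had a median of 0.01, with 0.17 for mouse 29 alone and -0.12 for mouse 34 alone. Mouse 29 lay above all 3 old isochronic mice for 8 and below for 1, against 27.2% and 28.1% of all genes. Mouse 34 lay above for 4 and below for 6, against 30.8% and 32.6%. For 4 members mouse 29 was above and mouse 34 below every old isochronic mouse, against 6.17% of all genes. The reverse held for 1, against 5.54%. An unadjusted p under 0.05 was reached by 0 of the 17, against 8.91% of all genes. Of 16 genes of MHC class I and the immunoproteasome, 12 lay above 0, 3 reached that p on the higher side and 1 on the lower, against 4.06% and 4.86% of all genes. H2-T23, the nonclassical class I molecule Qa-1, had 35.6 in mouse 29 and 25.6 in mouse 34, against 54.6, 55.7 and 52.4 in old isochronic mice, and 23.02, 27.4 and 37.5 in young isochronic mice. Both old heterochronic mice lay below all 3 old isochronic mice, and within the young isochronic range. The log2 difference was -0.82 (SE 0.22, limma adjusted p = 0.451); class I genes are near-identical copies, so reads may be split among them. H2-D1, a classical class I chain, went the other way, with 121 and 123 in old heterochronic mice, against 104, 105 and 90.7 in old isochronic mice. Psmb10, a catalytic subunit of the immunoproteasome, had 77.6 and 78.4 in old heterochronic mice, against 60.6, 48.6 and 70.9 in old isochronic mice.

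The 8 genes of MHC class II presentation tested had a median of 0.19, with 0.04 for mouse 29 alone and 0.46 for mouse 34 alone, and mouse 29 was above all old isochronic mice for 0 of them and below for 2, against 27.2% and 28.1% of all genes. Mouse 34, the library that also had the highest macrophage marker sum, was above for 7 and below for 0, against 30.8% and 32.6% of all genes. H2-Ab1, a class II beta chain, had 63.01 in mouse 29 and 82.8 in mouse 34, against 50.96, 64.8 and 41.8 in old isochronic mice. Among 13 leukocyte adhesion genes 1 reached an unadjusted p under 0.05, against 8.91% of all genes. This was Nt5e, the ectoenzyme CD73 that makes adenosine, with 45.01 in mouse 29 and 53.2 in mouse 34, against 39.4, 40.9 and 29.99 in old isochronic mice, and 59.8, 50.1 and 47.9 in young isochronic mice. Icam1, the endothelial and epithelial ligand of leukocyte integrins, had 32.6 and 35.5 in old heterochronic mice, against 34.6, 36.6 and 32.7 in old isochronic mice. Vcam1, another such ligand, had 169.9 and 192 in old heterochronic mice, against 189, 154 and 162 in old isochronic mice. Neither Icam1 nor Vcam1 was separated between the groups, with log2 differences of -0.02 (95% interval -0.53 to 0.48) and 0.11 (95% interval -0.11 to 0.33).

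The chemokine genes tested had a low median level, 2.09 on the log2 scale. The list summed to 259.5 in mouse 29 and 301 in mouse 34, against 232 to 259.1 in old isochronic mice. It thus also holds members of higher level, whose single values are not given here. Of 13 tested, 10 lay above 0 with a median of 0.30, and 1 reached an unadjusted p under 0.05, against 8.91% of all genes. This was Ccl2, which draws monocytes, with 9.00 in mouse 29 and 8.87 in mouse 34, against 3.85, 3.41 and 1.82 in old isochronic mice. Both values were above the old isochronic range but are worth only a few reads each. Cxcl10, an interferon-induced T cell attractant, had 5.63 in mouse 29 and 2.96 in mouse 34, against 3.85, 6.82 and 0 in old isochronic mice. Ccl17 had 1.13 in mouse 29 and 2.96 in mouse 34, against 0.96, 0.85 and 0.91 in old isochronic mice. Ccl11, the eotaxin described as an ageing factor of blood, was listed at 0 in all 5 old libraries. In the complement list 3 of 14 genes lay above and 4 below all old isochronic mice in both old heterochronic mice, against 14.1% and 13.6% of all genes. An unadjusted p under 0.05 was reached by 1 on the higher side and 2 on the lower, against 4.06% and 4.86%. The complement genes with values given here are all from the lower side. C3ar1, the receptor for the C3a fragment, had 0 in mouse 29 and 2.96 in mouse 34, against 5.77, 9.37 and 4.54 in old isochronic mice. Its old heterochronic values are worth a few reads at most. C1qc, a chain of the C1q recognition molecule, had 34.9 in mouse 29 and 34.01 in mouse 34, against 39.4, 53.7 and 47.2 in old isochronic mice.

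Among 18 growth and trophic factors tested, 12 lay above 0, with a median of 0.10; 5 reached an unadjusted p under 0.05 on the higher side and 1 on the lower, against 4.06% and 4.86% of all genes. Igfbp2, an abundant binding protein of insulin-like growth factors, had 449 and 510.2 in old heterochronic mice, against 394, 368 and 401 in old isochronic mice, and its log2 difference was 0.30 as deposited and 0.05 after quantile normalization. Bmp7, a bone morphogenetic protein of the epithelium, had 125 and 119.8 in old heterochronic mice, against 106, 90.3 and 107 in old isochronic mice, with a log2 difference of 0.28 as deposited and 0.22 after quantile normalization. Igf1 had 7.88 and 8.87 in old heterochronic mice, against 7.69, 11.1 and 5.45 in old isochronic mice, with a log2 difference of 0.09 (95% interval -0.75 to 0.93). Bdnf was listed at 0 in all 5 old libraries.

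Of the cell state lists, clock, stress and glucocorticoid genes had medians of -0.06 to 0.04. The 19 circadian clock genes had a median of 0.02 with 0 below an unadjusted p of 0.05, against 8.91% of all genes. The 21 stress and immediate early genes had -0.06 with 0, and the 14 glucocorticoid response genes 0.04 with 1. Ddit4, a stress-induced inhibitor of mTORC1, was that gene, with 67.5 and 78.4 in old heterochronic mice, against 57.7, 59.7 and 59.97 in old isochronic mice. Fos, the immediate early gene that marks recent stimulation, was at 0 in mouse 29 and 1.48 in mouse 34, against 3.85, 2.56 and 2.73 in old isochronic mice. All these Fos values are worth a few reads at most. Of 19 genes for chaperones and stress factors of the endoplasmic reticulum, 15 lay above 0, with a median of 0.12 as deposited and -0.0055 after quantile normalization. An unadjusted p under 0.05 was reached by 2 in each direction, against 4.06% of all genes on the higher side and 4.86% on the lower. Trib3, a target of the integrated stress response, had 2.25 and 2.96 in old heterochronic mice, against 13.5, 5.11 and 8.18 in old isochronic mice. Both old heterochronic values of Trib3 are worth only a few reads. Of 11 D cyclins and cell cycle inhibitors, Ccnd1 had the smallest p, with 30.4 and 47.3 in old heterochronic mice, against 63.5, 46.02 and 68.1 in old isochronic mice, a direction opposite to that of Ccnd2. Of 16 motile cilia genes, with a median of 0.11 as deposited and 0.13 after quantile normalization, 3 reached that p on the higher side, against 4.06% of all genes, led by Foxj1, the master regulator of motile cilia, with 180.0 and 214 in old heterochronic mice, against 152, 168 and 166 in old isochronic mice.

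The genes with the smallest p on the higher side, among those whose libraries did not overlap, were Tuba1a, Cadm2, Enpp2, Mepce, Tmem259, Cst3, Ftl1, Mylip, Hsd17b11 and Rpl41, and none passed the adjusted threshold. Tuba1a, an alpha tubulin with close paralogs, had 188 in mouse 29 and 219 in mouse 34, against 153, 137 and 154 in old isochronic mice. Cadm2, a synaptic cell adhesion molecule, had 94.5 in mouse 29 and 78.4 in mouse 34, against 57.7, 60.5 and 55.4 in old isochronic mice, a log2 difference of 0.57 (SE 0.13, limma adjusted p = 0.397). It was 0.57 after quantile normalization as well, and Cadm2 was higher in mouse 29 than in mouse 34. Mepce, the enzyme that caps 7SK RNA, had 100.1 in mouse 29 and 102 in mouse 34, against 75.00, 71.6 and 76.3 in old isochronic mice, and its log2 difference was 0.44 as deposited and 0.42 after quantile normalization. Mylip, the ligase that marks the LDL receptor for degradation, had 34.9 in mouse 29 and 36.97 in mouse 34, against 13.5, 25.6 and 16.4 in old isochronic mice. It had the largest difference of these 10, at 0.97 (SE 0.27, limma adjusted p = 0.451). Hsd17b11, a steroid dehydrogenase of lipid droplets, had 117 in mouse 29 and 124 in mouse 34, against 95.2, 95.5 and 79.96 in old isochronic mice. Tmem259 and Cst3, the secreted protease inhibitor cystatin C, had log2 differences of 0.38 and 0.37 as deposited and of 0.26 and 0.11 after quantile normalization.

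**Figure D5:**
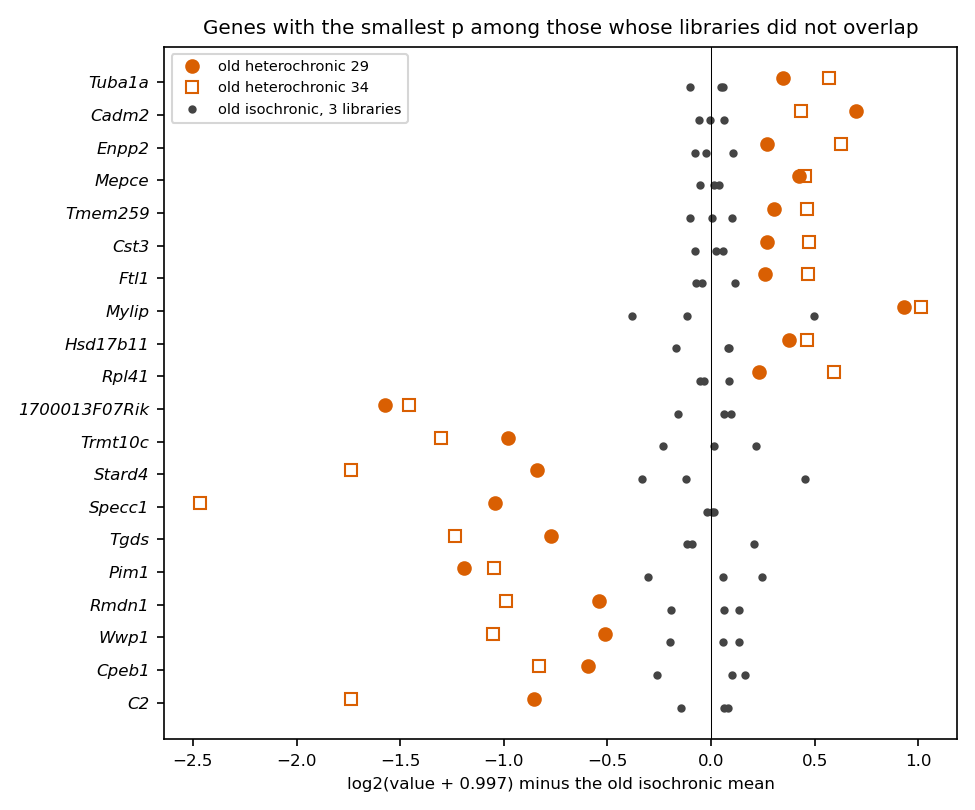
The 10 genes with the smallest p on the higher side (top) and the 10 on the lower side (bottom) among genes whose libraries did not overlap; the x axis is log2 of the value plus 0.997, minus the old isochronic mean. Filled circles are mouse 29, open squares mouse 34 and small dots the 3 old isochronic libraries; both mice lie beyond the dots in all 20 rows because the rule asked for it, and none passed the adjusted threshold.

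On the lower side the corresponding genes were 1700013F07Rik, Trmt10c, Stard4, Specc1, Tgds, Pim1, Rmdn1, Wwp1, Cpeb1 and C2, which have low to moderate values. The gene 1700013F07Rik had 6.75 in mouse 29 and 7.39 in mouse 34, against 23.1, 19.6 and 23.6 in old isochronic mice, with a log2 difference of -1.51 (SE 0.30, limma adjusted p = 0.142). Trmt10c, a subunit of mitochondrial RNase P that methylates and trims transfer RNA, had 16.9 in mouse 29 and 13.3 in mouse 34, against 34.6, 40.1 and 29.1 in old isochronic mice, a log2 difference of -1.14 (SE 0.23, limma adjusted p = 0.142). These were the 2 smallest p of the comparison, and both mice gave like values. Stard4, a cytosolic carrier of cholesterol, had 14.6 in mouse 29 and 7.39 in mouse 34, against 21.2, 24.7 and 37.3 in old isochronic mice. Pim1, a kinase induced by cytokine signals, had 11.3 in mouse 29 and 12.6 in mouse 34, against 32.2, 21.7 and 28.2 in old isochronic mice. Specc1 had 5.63 in mouse 29 and 1.48 in mouse 34, against 12.5, 12.8 and 12.7 in old isochronic mice, and the low value of mouse 34 is worth 1 read.

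Cpeb1, which controls translation through polyadenylation, had 28.1 in mouse 29 and 23.7 in mouse 34, against 35.6, 46.02 and 48.2 in old isochronic mice. C2, the complement component of the classical pathway, had 9.00 in mouse 29 and 4.44 in mouse 34, against 15.4, 17.9 and 18.2 in old isochronic mice. Tgds had 14.6 in mouse 29 and 10.4 in mouse 34, against 24.04, 29.8 and 23.6 in old isochronic mice. Wwp1, a ubiquitin ligase, had 32.6 in mouse 29 and 22.2 in mouse 34, against 49.04, 40.9 and 51.8 in old isochronic mice. Its neighbour Rmdn1 had 32.6 and 23.7 in old heterochronic mice, against 41.8 to 52.7 in old isochronic mice. The values of Rmdn1 and Wwp1 were nearly the same in each library, and neighbouring genes whose reads overlap cannot be told apart here, so the pair may be 1 measurement. After quantile normalization all 10 kept a negative log2 difference, from -1.60 for Specc1 to -0.63 for Cpeb1.

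Whether the partner's age acted differently in old than in young mice was tested as the difference of the 2 effects, old heterochronic minus old isochronic less young heterochronic minus young isochronic. No gene passed (0 of 13281, 0%, by limma), and 846 genes (6.37%) had an unadjusted p under 0.05. The smallest p on the lower side belonged to Rps10, a ribosomal protein gene with many pseudogenes, followed by 1700013F07Rik, H2-T23, Pim1 and Trmt10c. Rps10 had 88.05 and 91.9 in old heterochronic mice, against 127, 111 and 112 in old isochronic mice, and 134, 117 and 126 in young heterochronic mice, against 100.2, 92.6 and 109 in young isochronic mice. The effects had opposite signs and their difference was -0.69 (SE 0.14, limma adjusted p = 0.388). On the higher side stood Cx3cr1, Ankrd13d, Alpl, Ahnak and Cadm2. Cx3cr1, the fractalkine receptor of macrophages and microglia, had 34.9 and 55.5 in old heterochronic mice, against 34.4, 37.6 and 34.98 in old isochronic mice, and 33.04, 20.4 and 33.7 in young heterochronic mice, against 57.9, 65.8 and 48.3 in young isochronic mice. Its difference was 1.27 (SE 0.28, limma adjusted p = 0.388), and mouse 29 alone stood within the old isochronic range. Macrophage and microglia markers as a list had a median difference of effects of 0.61, against -0.01 over all genes. Its larger part lay in young mice, where the median for heterochronic minus isochronic was -0.52. In old mice that median was 0.22, with -0.0021 for mouse 29 alone and 0.45 for mouse 34 alone. The type I interferon list had a median difference of effects of -0.15.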

How the data were processed

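RNA sequencing of choroid plexus from 11 parabionts was used, with 6 choroid plexus libraries of unjoined mice beside it. The submitters' processing notes name TopHat and the mouse build mm9. The version, the counter and any scaling step go unnamed in the sources used here. Deposited values are a signal per RefSeq transcript that the authors scaled per library: judged from the values, 85.3% to 86.8% of parabiont values are whole multiples, within 0.001 of a step, of the value worth 1 read, and the rest hold fractions of reads, so whole counts were not recovered. High parabiont values are compressed by an unknown rule, which shrinks and can distort differences of abundant genes.

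From these values, 1 transcript per gene, that of highest mean, was kept (21781 transcripts, 16887 genes; names from RefSeq accessions, with no coordinates of the files used). Genes above 4 times the pseudocount in at least 2 libraries were tested (at least 3 among unjoined mice). The pseudocount was the median value worth 1 read, 0.997 in parabionts and 1.238 in unjoined mice, and fold changes are on the log2(value + pseudocount) scale, which understates changes of low genes. All 11 libraries entered 1 limma 3.58.1 fit (R 4.3.3; trend, robust), with Benjamini-Hochberg adjustment over all genes and calls at an adjusted p under 0.05; the fit was tested on simulated data. Intervals are 95% limits of that fit. Experiments were fitted separately. Depth is in reads over 1 transcript per gene and limits only counting error; p-values measure the spread between these mice.

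Genes named are the 10 per direction with the smallest p among those whose libraries did not overlap (a rule by size applied to called genes, of which there were 0), those of each list with the smallest p, a fixed set of interferon, adhesion, chemokine and growth genes, the genes of smallest p for the difference of partner effects, and those called in unjoined mice. The members, lists and tests were chosen with earlier results of these data known. Of the tissue columns, 1 matched no listed sample and was not used. Single values of a few list members are not reported here, although the counts and medians over their lists include them.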

Additional observations from a re-analysis of the deposited data

How the results depend on the processing

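The comparison of old heterochronic with old isochronic mice gave 0 called genes in all 9 alternatives that kept the 5 old libraries, voom (816 genes at an unadjusted p under 0.05) and cyclic loess normalization included, the latter chosen after the data were seen. With 1 library left out it gave 0 to 74, the 74 without mouse 29 and 1 without mouse 34. The difference of partner effects gave 0 to 9 calls with 1 library left out, the 9 without mouse 29. Old against young isochronic mice gave 25 calls, 13 with the smallest pseudocount, 2 by limma without a trend and 9 to 11 with an isochronic mouse left out. Unjoined mice gave 31 calls, 57 with no filter, 9 without a trend and 40 with a replicate block; mouse numbers are shared there but do not pair the mice, since deviations of same-numbered mice correlated at -0.074, 0.019 and -0.042 and no aged mouse correlated best with its own number. No paired analysis was possible in parabionts because the groups share no numbers. The interferon score difference of -0.20 was -0.13 after quantile normalization and ranged from -0.64 to 0.25 with 1 library left out. Signs of named differences turned as follows. Quantile normalization gave -0.039 for Bst2, 0.052 for Icam1 and -0.14 for Lgals3bp; cyclic loess gave -0.012 for Bst2, 0.067 for Icam1, -0.012 for Vcam1, -0.030 for Ttr and -0.13 for Lgals3bp; summing transcripts gave -0.12 for Igf1. With 1 library left out, the log2 difference ranged from -1.40 to 0.58 for Isg15, -1.22 to 0.44 for Irf7, -0.74 to 0.47 for Ifit1, -0.10 to 0.019 for Ifitm3, -0.27 to 1.22 for Cxcl10, -0.083 to 0.035 for Icam1, -0.13 to 0.32 for Igf1, -0.014 to 0.064 for Lgals3bp, -0.067 to 0.33 for Pisd-ps1 and Pisd-ps3 and -0.017 to 0.17 for Tlx2. The cause of these changes was not tested. Depth limits low genes most, since 1 read is worth 1.13 in mouse 29 and 1.48 in mouse 34.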

Other observations

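The remaining gene and marker lists had 0 members past the adjusted threshold. Ependymal markers summed to 533 in mouse 29 and 546 in mouse 34, against 471 to 504 in old isochronic mice, and neuron markers to 110.3 and 87.3, against 71.6 to 85.0 in old isochronic mice, with Gad2 and Slc17a6 at 0 in all 5 old libraries. Astrocyte markers summed to 513 in mouse 29 and 602 in mouse 34, against 486 to 552 in old isochronic mice, and oligodendrocyte markers to 274 and 276, against 259.9 to 273 in old isochronic mice. Neutrophil markers summed to 119.5 in mouse 29 and 136 in mouse 34, against 101 to 124 in old isochronic mice, and B and plasma cell markers to 43.7 and 53.2, against 37.8 to 58.5 in old isochronic mice. Of 12 tight junction genes 1 reached an unadjusted p under 0.05, against 8.91% of all genes. This was Cldn2, a cation pore of leaky epithelia, at 196 in mouse 29 and 220.3 in mouse 34, against 177, 166 and 188 in old isochronic mice. The lists of acute phase and inflammation genes (12 tested, median log2 difference -0.10) and Slco organic anion transporters (7, 0.06) were described by medians alone. The 14 iron handling genes tested had a median of 0.01. Of these, 3 reached an unadjusted p under 0.05 on the higher side, against 4.06% of all genes, and 0 on the lower. Ftl1 and Fth1, whose values are given above, had the smallest p of that list. The 11 cell proliferation genes tested had a median of -0.10. In the last, Tyms, the thymidylate synthase, was at 4.50 in mouse 29 and 2.96 in mouse 34, against 11.5, 7.67 and 8.36 in old isochronic mice. Both old heterochronic values of Tyms are worth only a few reads.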
